A study of Homo sapiens with 6 samples.

Results

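The genes described here are 10 interleukins and related cytokines measured before and after DAC treatment: IL1A, IL1B, IL18 and IL33 of the IL-1 family, IL6, IL11, LIF and EBI3, which belong to or are related to the IL-6 family, and the epithelial cytokines IL24 and IL32. They were picked by gene symbol, with earlier results of these data known. All 10 were present among the 23617 symbols measured in MDA-MB-231 cells, with 25 transcripts in all. MDA-MB-231 is a human breast cancer cell line and HMLER is a line obtained by transforming human mammary epithelial cells in culture. Decitabine (DAC, 5-aza-2′-deoxycytidine) is a cytidine analog that, once built into DNA, traps DNA methyltransferases, so that methylation is lost as cells divide. Treated cells received 10 µM DAC every day and were collected at 72 h, and the control cells were untreated. For MDA-MB-231 there was 1 library of treated and 1 of untreated cells, and for HMLER 2 libraries of each, which the deposited table merges into 1 value per condition. Per the study's methods, pools of several independent extractions were sequenced, and whether these came from separate cultures is not stated. One label of the untreated MDA-MB-231 library carries another line number, and its title, which gives MDA-MB-231, was used.

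Interleukins are secreted or released proteins through which epithelial, stromal and immune cells signal to each other. IL-1α and IL-1β bind the same receptor and act mainly through NF-κB, whereas IL-18 and IL-33 use related receptors and are stored or made as precursors. IL-6, IL-11 and LIF signal through the shared receptor chain gp130, encoded by IL6ST, to JAK kinases and STAT3. EBI3 is a soluble receptor-like subunit that pairs with the products of IL27 or IL12A, IL-24 signals through receptors of the IL-20 family, and IL-32 has no relative of known structure and is found in many spliced forms.

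Expression was measured in FPKM, the number of fragments scaled by transcript length and by library size, which Cuffdiff gives per RefSeq transcript. The level of a gene in MDA-MB-231 is the sum of its transcripts. In HMLER only transcripts that rose are listed, so its values are those of the listed transcripts and not of the whole gene. Each listed member has 1 listed transcript there. A gene is called higher where its sum in DAC-treated cells was over 2 times that in untreated cells, and lower in the opposite case, provided that at least 1 of the 2 sums reached 1 FPKM. As there was 1 library per condition in MDA-MB-231 and 1 merged value per condition in HMLER, no test between conditions was possible, no p-value is given, and "higher" and "lower" describe these libraries. In MDA-MB-231 each transcript also has a lower and an upper bound from Cuffdiff, and low values came in steps of a single read. This allowed the reads behind each gene to be inferred, with a 95% interval (exact Poisson for a number of reads, exact binomial for a ratio) that covers counting error only and not the difference between cultures. In bulk RNA, more cells that express a gene and more RNA per cell cannot be told apart.

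The cell line labels were compared with marker genes. MDA-MB-231 is known as a mesenchymal-like line, and of 5 mesenchymal markers VIM, FN1, ZEB1 and SPARC were above 1 FPKM untreated and CDH2 was at 0.0902 FPKM. Of the 5, 3 were higher and 2 lower, where 10.8% and 4.82% of all symbols at 1 FPKM or more were. Only for SPARC did the bounds of the main transcript not overlap, and CDH2 reached 1 FPKM only after DAC. VIM, which encodes vimentin, was at 3066 FPKM untreated (bounds 0 to 10419) and 1134 FPKM after DAC, and ZEB1 at 31.1 and 15.2 FPKM. FN1 was higher (39.8 to 111.3 FPKM), as were CDH2 (to 1.06 FPKM) and SPARC (2.09 to 11.3 FPKM), and CDH1, which encodes E-cadherin, was at 0 and 0.179 FPKM. The part of these marker changes in the results on the interleukins was not tested. The simple-epithelium keratins KRT8 and KRT18 were at 154.4 and 141.0 FPKM and at 173.5 and 164.1 FPKM. EPCAM was at 7.90 and 9.78 FPKM, and the basal keratins KRT5 and KRT14 stayed at or below 0.0495 FPKM (KRT14 after DAC). Of 8 leukocyte and myeloid markers, the lysosomal gene CD68, which other cells also express, was at 137.1 and 161.9 FPKM and the other 7 stayed at or below 0.732 FPKM (CD14 after DAC), with PTPRC at 0.0247 and 0.119 FPKM. In HMLER KRT5 (9.85 to 37.1 FPKM) and KRT14 (11.6 to 52.2 FPKM) were listed, as was EPCAM (0.450 to 2.17 FPKM). No leukocyte marker was listed, but their levels in HMLER are not known, since only transcripts that rose are listed there. Of 6 housekeeping genes in MDA-MB-231, ACTB was lower (3376 and 1469 FPKM), and HPRT1 was at 49.8 and 49.7 FPKM. The middle ratio of DAC to untreated cells was 0.912 (log2 -0.13) over 11292 symbols that reached 1 FPKM before and after treatment, and dividing by it left 6 of the 10 genes higher and none lower, as without it.

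The promoters of the genes that were higher after DAC in both lines are shown first, because DNA methylation in mammals lies mostly at CpG dinucleotides and these windows show how many CpGs, methylated or not, lie at each start. The RefSeq promoter windows of build GRCh38.p14 hold 250 bases before and 50 after the annotated start, and 8 of the 10 genes had an entry (no entry for LIF and IL18). Where a gene had 2 entries, the one with the outermost start was taken. These starts come from another annotation than the transcripts measured and need not be theirs. Judged by its distance from IL1B, the IL1A start lies inside the measured IL1A transcript. The CpG dinucleotides are in capitals.
IL11 promoter, chr19:55370414-55370713, minus strand: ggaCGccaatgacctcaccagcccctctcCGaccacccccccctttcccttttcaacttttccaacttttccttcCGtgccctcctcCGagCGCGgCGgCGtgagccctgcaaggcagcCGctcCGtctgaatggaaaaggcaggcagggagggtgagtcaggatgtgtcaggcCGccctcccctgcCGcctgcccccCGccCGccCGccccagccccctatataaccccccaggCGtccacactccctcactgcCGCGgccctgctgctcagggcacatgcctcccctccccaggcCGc
EBI3 promoter, chr19:4229273-4229572, plus strand: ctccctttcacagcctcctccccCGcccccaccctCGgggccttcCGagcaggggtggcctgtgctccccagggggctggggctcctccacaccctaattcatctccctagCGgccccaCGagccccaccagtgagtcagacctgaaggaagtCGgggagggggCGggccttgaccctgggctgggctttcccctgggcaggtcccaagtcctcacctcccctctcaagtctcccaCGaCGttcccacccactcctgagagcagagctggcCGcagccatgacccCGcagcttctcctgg
IL1A promoter, chr2:112784444-112784743, minus strand: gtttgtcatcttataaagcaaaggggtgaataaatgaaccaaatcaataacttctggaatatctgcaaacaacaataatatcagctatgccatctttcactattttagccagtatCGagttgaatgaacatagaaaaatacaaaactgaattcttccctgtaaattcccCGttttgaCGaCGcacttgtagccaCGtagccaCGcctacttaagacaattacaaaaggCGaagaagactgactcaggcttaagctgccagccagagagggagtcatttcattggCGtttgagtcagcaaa
IL32 promoter, chr16:3065153-3065452, plus strand: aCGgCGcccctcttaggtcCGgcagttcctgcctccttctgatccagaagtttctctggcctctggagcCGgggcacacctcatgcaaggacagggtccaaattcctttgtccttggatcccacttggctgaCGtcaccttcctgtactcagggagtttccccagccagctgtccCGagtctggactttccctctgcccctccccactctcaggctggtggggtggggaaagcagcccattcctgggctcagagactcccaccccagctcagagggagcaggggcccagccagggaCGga
IL1B promoter, chr2:112836730-112837029, minus strand: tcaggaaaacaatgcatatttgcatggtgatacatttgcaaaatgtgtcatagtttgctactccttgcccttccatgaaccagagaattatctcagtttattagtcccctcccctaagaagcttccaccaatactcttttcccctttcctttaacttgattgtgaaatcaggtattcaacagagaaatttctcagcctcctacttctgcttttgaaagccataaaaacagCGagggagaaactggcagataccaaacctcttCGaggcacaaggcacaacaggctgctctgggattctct

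Among these windows, IL11 held the most CpGs, 19, followed by EBI3 with 11, IL1A with 8, IL6 and IL32 with 7 each, IL24 with 4, IL1B with 2 and IL33 with 1. All 35116 promoter windows had a median of 14 CpGs, with quartiles of 4 and 28, so of these 8 only IL11 lay above the median, at percentile 57.1, and IL33 lay at percentile 3.96. None of the 8 windows reached the upper quartile. The AP-1 motif TGANTCA, searched on both strands, had 1 match in IL11 (first base at -96 from the start), 1 in EBI3 (-118) and 2 in IL1A (-12 and 39), and none in the other 5. This motif was found in 7.71% of all windows. The NF-κB consensus, also searched on both strands, was found in IL6 (-73) and, as overlapping matches, in IL32 (-99 and -98), and in 5.91% of all windows. The matches describe letters in these windows, and DNA methylation of these starts was not measured in the data used here.

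**Figure D1:**
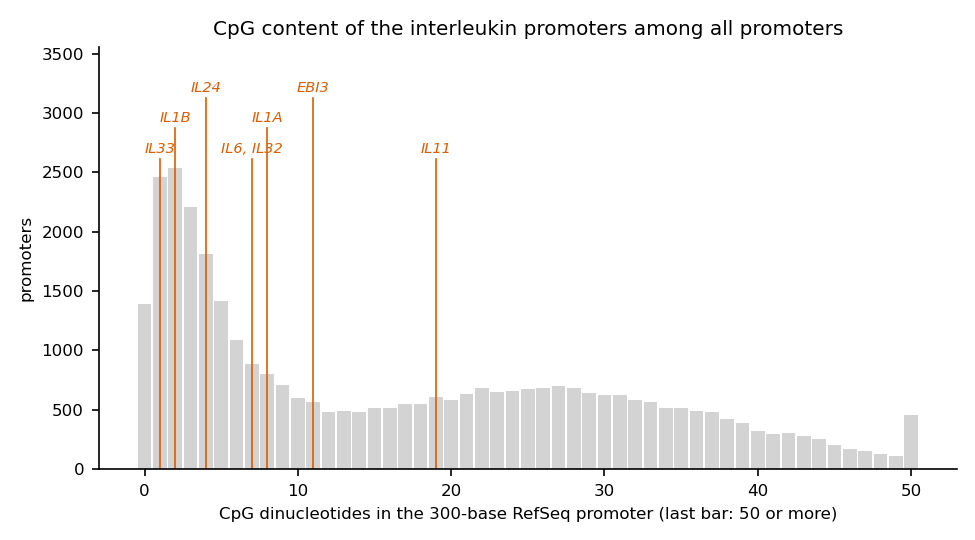
CpG dinucleotides per 300-base promoter window (x axis) against the number of RefSeq windows (y axis, grey bars), with orange lines at the 8 interleukin genes that had an entry. IL33 (1 CpG) and IL1B (2 CpGs) lie at the left end and IL11 (19 CpGs) is the only one to the right of the median of 14.

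Most of the interleukins were higher after DAC in these libraries. As they were chosen with earlier results of these data known, the shares of all symbols beside their counts are a description and not a test. In MDA-MB-231, 8 of the 10 genes reached 1 FPKM in at least 1 library, and 6 of these, IL1A, IL1B, IL11, IL24, IL32 and EBI3, were more than 2-fold higher, where 10.8% of all 12525 symbols at 1 FPKM or more were. For 4 of the 8 (IL1B, IL24, IL32 and EBI3) the untreated sum was under 1 FPKM, so that they reached the minimum only through the DAC-treated library. No member was more than 2-fold lower, against 4.82% of all symbols. LIF and IL18 reached 1 FPKM without a 2-fold change, and IL6 and IL33 stayed under 1 FPKM in both libraries. In HMLER, 7 of the 10 genes were listed as higher, all but IL18, IL24 and IL33, where 7.85% of the MDA-MB-231 symbols were listed. The 5 genes higher in both lines were IL1A, IL1B, IL11, IL32 and EBI3, and 3.66% of the 12525 symbols were. Both counts set a sum in MDA-MB-231 beside at least 1 transcript that rose in HMLER, which are unlike measures. The median log2 change, computed as log2 of the summed FPKM plus 1, was 1.08 over the 8 genes and -0.08 over the 12525 symbols. The first median is raised by the filter, as the 4 genes under 1 FPKM untreated could only have a positive change. The other 4 were at 1.58 (IL11), 1.24 (IL1A), -0.19 (LIF) and -0.52 (IL18).

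**Figure D2:**
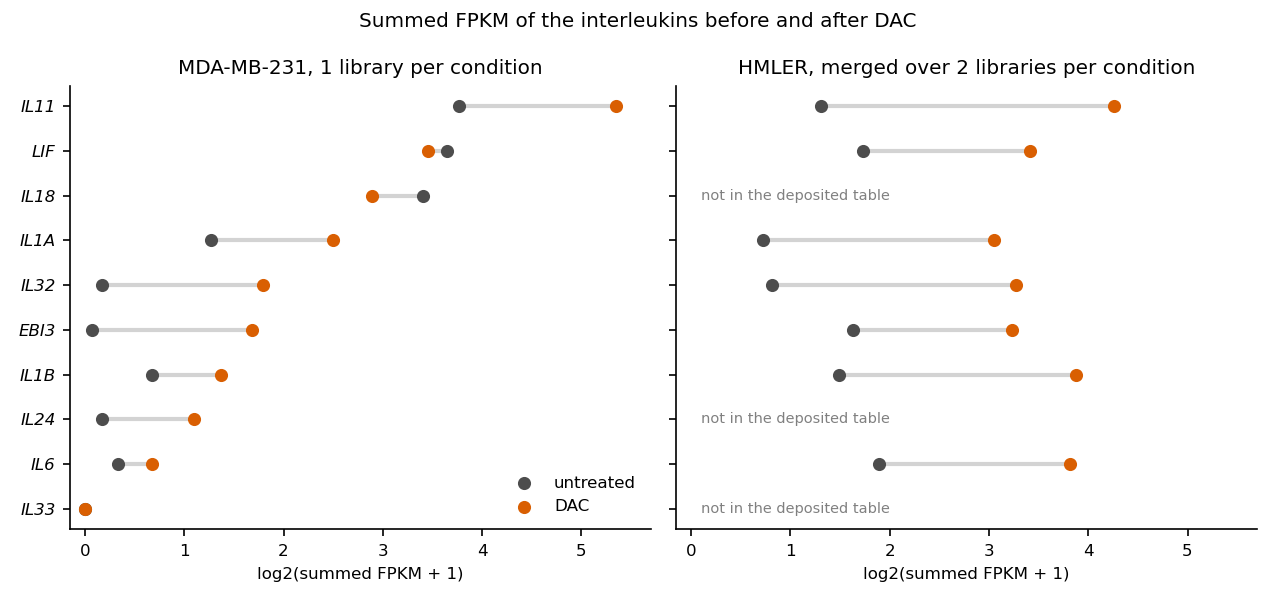
FPKM of each interleukin on a log2(FPKM + 1) axis, untreated (grey) and DAC-treated (orange). Values are summed over all transcripts in MDA-MB-231 (left). In HMLER (right, genes absent from the deposited table marked) they are of the 1 listed transcript per gene. IL11 was the highest after DAC in MDA-MB-231 and among the genes listed in HMLER. LIF lay lower after DAC in MDA-MB-231 (11.5 to 9.95 FPKM) and higher in HMLER (2.32 to 9.67 FPKM).

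IL11, a gp130 cytokine known for actions on stroma, bone and blood platelets, had the highest summed FPKM of the 10 in both MDA-MB-231 libraries. In the untreated library its bounds overlapped those of LIF, so only after DAC did it stand apart. Its gene lies on chromosome 19, from 55875750 to 55881831 in hg19. The summed FPKM was 12.6 before and 39.7 after DAC, a ratio of 3.16. NM_000641 carried 97.8% of the sum after DAC and went from 12.6 (bounds 5.60 to 19.5) to 38.8 FPKM (bounds 20.9 to 56.6). It was the only one of the 25 transcripts whose bounds in the 2 libraries did not overlap. The shorter NM_001267718 was listed at 0 FPKM untreated and at 0.890 FPKM after DAC (bounds 0 to 3.71). In reads, IL11 went from 1165 to about 3647, a ratio of 3.15 with a counting interval of 2.95 to 3.37. In HMLER the listed transcript NM_000641 was at 1.47 FPKM untreated and 18.2 FPKM after DAC, a ratio of 12.4, so that IL11 passed from place 5 of the 7 listed members to the top.

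LIF, which keeps mouse embryonic stem cells undifferentiated, also signals through gp130. It was the only member with a lower sum after DAC in MDA-MB-231 that was listed as higher in HMLER. The gene lies on chromosome 22, from 30636436 to 30642840. In MDA-MB-231 its sum was 11.5 FPKM untreated and 9.95 FPKM after DAC, a ratio of 0.864. The main transcript NM_002309 was at 11.04 FPKM (bounds 5.48 to 16.6) and 8.83 FPKM (bounds 4.02 to 13.6), and NM_001257135 at 0.475 and 1.12 FPKM, with overlapping bounds for both. Inferred reads were 1845 and 1578, a ratio of 0.861 with a counting interval of 0.804 to 0.921. Divided by the median ratio of all genes, the LIF ratio was 0.947. In HMLER NM_002309 was at 2.32 FPKM untreated and at 9.67 FPKM after DAC, a ratio of 4.18. With a single value per condition and line, this difference was not tested. The level of NM_001257135 in HMLER is not known, since only transcripts that rose are listed there.

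IL6, the founding member of its family and an inducer of the acute-phase response, was low in MDA-MB-231. The gene lies on chromosome 7, from 22766766 to 22771621. It was at 0.263 FPKM (bounds 0 to 0.767) untreated and 0.602 FPKM (bounds 0 to 1.70) after DAC, which correspond to 11 reads (5.49 to 19.7) and 25 reads (16.2 to 36.9). The ratio of 2.29 had a counting interval of 1.09 to 5.15, and as both values were under 1 FPKM the gene was not counted as higher. In HMLER, IL6 was the highest of the 7 listed members before treatment, at 2.70 FPKM, and reached 13.1 FPKM after DAC, a ratio of 4.84.

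EBI3 had the largest ratio in MDA-MB-231. The gene lies on chromosome 19, from 4229540 to 4237524, and its only transcript was at 0.0503 FPKM (bounds 0 to 0.174) untreated and at 2.20 FPKM (bounds 0 to 5.21) after DAC. The untreated value rests on 2 reads and the DAC value on 87 reads. The ratio of 43.8 therefore had a wide counting interval, from 11.8 to 367.1. In HMLER, where EBI3 was already at 2.09 FPKM untreated, it was at 8.41 FPKM after DAC, a ratio of 4.02. Neither usual partner gave a high level in MDA-MB-231. IL27 was listed at 0 FPKM in both libraries, and IL12A was at 2.33 FPKM untreated and 5.54 FPKM after DAC, a ratio of 2.38. In HMLER IL12A was listed, at 0.572 and 4.39 FPKM.

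IL1A and IL1B, the ligands of the IL-1 receptor, are neighbours on chromosome 2 (113531492 to 113542971 and 113587337 to 113594356). IL1A was at 1.40 FPKM (bounds 0 to 2.98) untreated and 4.66 FPKM (bounds 1.16 to 8.17) after DAC in MDA-MB-231. These values correspond to 163 and 538 reads, a ratio of 3.32 with a counting interval of 2.78 to 3.98. IL1B was lower in both libraries, at 0.598 FPKM (bounds 0 to 1.68) and 1.59 FPKM (bounds 0 to 3.76). Its 33 and 87 reads give a ratio of 2.65, with a counting interval of 1.76 to 4.09. The intervals of the 2 genes overlap, so their ratios could not be told apart in MDA-MB-231. In HMLER the order of the levels was the opposite, with IL1B at 1.80 and 13.7 FPKM and IL1A at 0.654 and 7.26 FPKM. The ratios there, which have no interval, were 7.61 for IL1B and 11.1 for IL1A. The other 7 IL-1 family genes of a reference list, IL1RN and IL37 among them, did not reach 1 FPKM in either MDA-MB-231 library, 6 of them were listed at 0 in both, and none was listed in HMLER.

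IL33, a nuclear cytokine of barrier epithelia and endothelium, was not detected. All 3 of its transcripts (chromosome 9, 6215786 to 6257983) were listed at 0 FPKM in both MDA-MB-231 libraries, and the gene was not listed in HMLER. A count of 0 was taken to allow up to 3 reads (the exact Poisson interval used for the other genes ends at 3.69 reads), which on the longest transcript would be 0.0281 FPKM untreated and 0.0283 FPKM after DAC.

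IL18, which is made as a precursor and is cleaved by caspase-1, showed no 2-fold change in its sum but a different split between its transcripts. The gene lies on chromosome 11, from 112013974 to 112034840. Its sum was 9.63 FPKM untreated and 6.39 FPKM after DAC in MDA-MB-231, from 382 and 255 reads, a ratio of 0.672 with a counting interval of 0.571 to 0.789. NM_001243211 went from 9.62 FPKM (bounds 1.84 to 17.4) to 0.727 FPKM (bounds 0 to 2.78), and NM_001562 from 0.00152 FPKM (bounds 0 to 0.101) to 5.67 FPKM (bounds 0 to 11.3). The share of NM_001243211 in the sum was thus 99.98% untreated and 11.4% after DAC. For both transcripts the bounds overlapped. The 2 transcripts differ by 12 bases in length, and the GENCODE annotation holds a coding exon of 12 bases (exon 3, chr11:112024315-112024326 in GRCh37, minus strand) that is present in the longer of its 2 IL18 transcripts compared here and absent from the other. It adds 4 residues to the protein without a shift of the reading frame. These exon junctions are printed with 15 bases on each side and the exon in capitals, since only reads across these few bases separate the forms.
IL18 with exon 3: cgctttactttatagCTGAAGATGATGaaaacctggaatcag
IL18 without exon 3: cgctttactttatagaaaacctggaatcag

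The assignment of the IL18 reads to one or the other form by Cuffdiff was not tested, because reads across these junctions are not part of the data used here. With the most abundant transcript in place of the sum, IL18 would be counted as more than 2-fold lower. IL18 was not listed in HMLER.

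IL32, a proinflammatory cytokine found in epithelial, T and natural killer cells, went from nearly absent to a low level in MDA-MB-231. The gene lies on chromosome 16, from 3115313 to 3119668, and has 8 transcripts in the table. Their sum was 0.125 FPKM untreated and 2.45 FPKM after DAC, from 4 and 79 reads, a ratio of 19.9 by reads with a counting interval of 7.46 to 74.7. After DAC, NM_001012633 was at 1.34 FPKM (bounds 0 to 3.96), NM_004221 at 0.697 FPKM (bounds 0 to 2.39) and NM_001012634 at 0.384 FPKM (bounds 0 to 1.81). In the untreated library nearly all of the sum was given to another transcript, NM_001012632, at 0.125 FPKM. In HMLER only NM_004221 was listed, at 0.764 FPKM untreated and 8.65 FPKM after DAC, a ratio of 11.3.

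IL24, a cytokine of the IL-10 family first found in differentiating melanoma cells, shares its locus with another gene. IL24 lies on the plus strand of chromosome 1, from 207070788 to 207077484 in GRCh37, and FCMR, named FAIM3 in the table, lies on the minus strand from 207076662. The annotated genes overlap by 823 bases, and whether the libraries kept the strand is not stated, so reads from the overlap cannot be told apart. The IL24 sum was 0.125 FPKM untreated and 1.14 FPKM after DAC, of which NM_006850 made up 56.4% and 95.7% (0.0703 and 1.09 FPKM, with overlapping bounds). By reads, IL24 had about 9 and 86, a ratio of 9.61 with a counting interval of 4.84 to 21.7. FAIM3 was at 0.227 and 2.85 FPKM, a ratio of 12.6. The read totals of IL24 were not whole numbers (9.42 and 85.8), whereas IL24 and FAIM3 together had 34.0 and 393.04, which shows that reads were divided between them. FAIM3 was given the larger part, 24.6 and 307.25 reads, and the counting interval of IL24 does not cover this division. IL24 was not listed in HMLER and FAIM3 was. The other genes of the IL-10 and IL-20 families, IL10, IL19, IL20, IL22 and IL26, were listed at 0 FPKM in both MDA-MB-231 libraries.

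**Figure D3:**
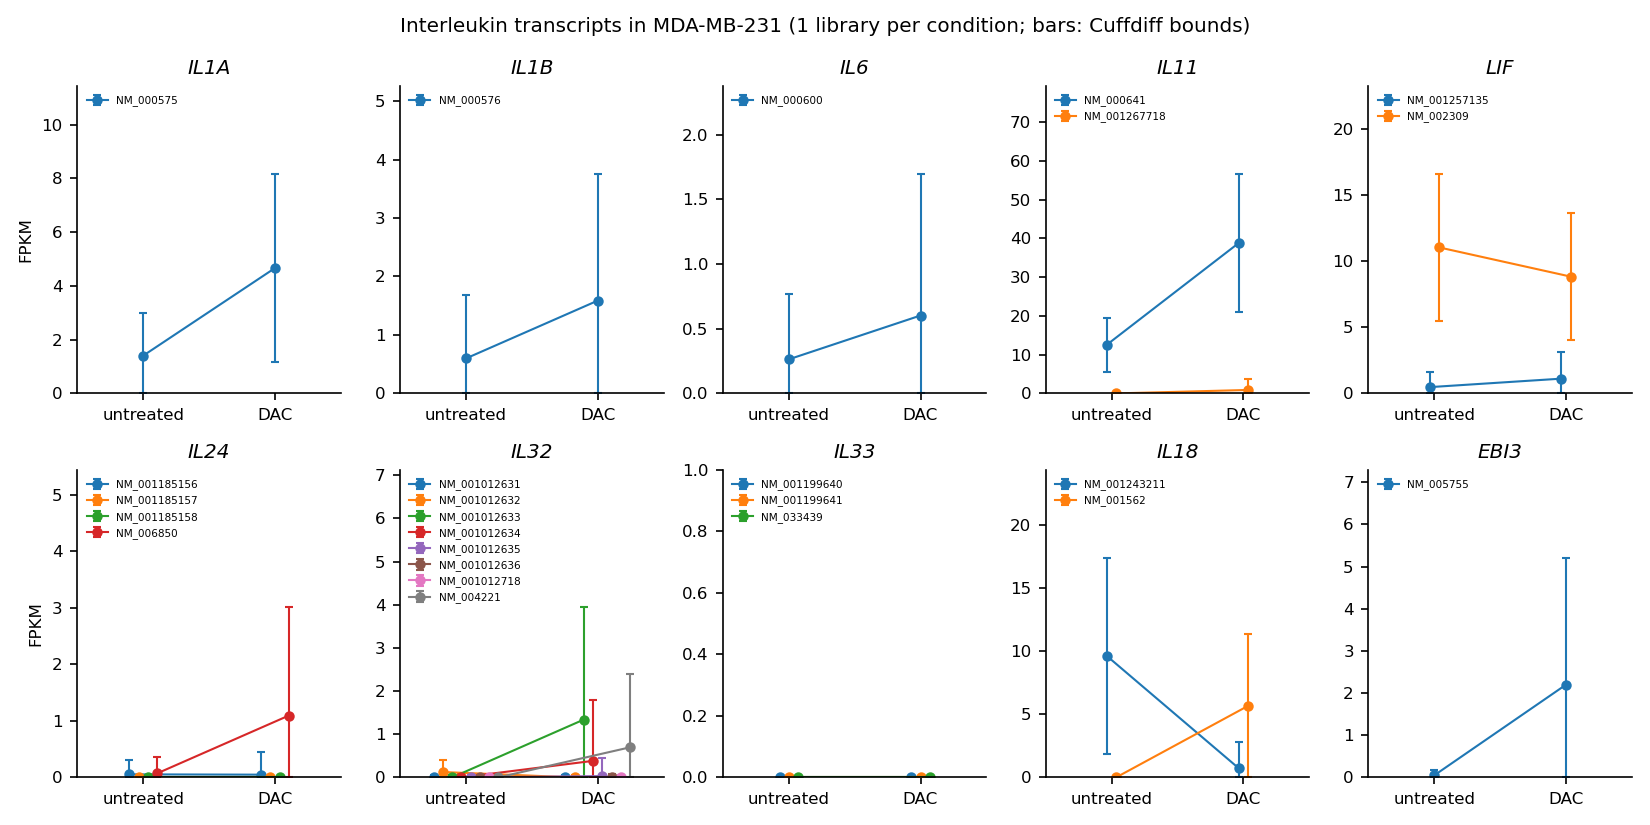
FPKM (y axes, linear, a different range in each panel) of all 25 transcripts of the 10 genes in the untreated and the DAC-treated MDA-MB-231 library, with bars for the Cuffdiff bounds. NM_000641 of IL11 is the only transcript with bounds that do not overlap, and the 2 transcripts of IL18 cross.

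The order of the levels in MDA-MB-231 changed little at the top and more below it. In the untreated library IL11 (12.6 FPKM), LIF (11.5 FPKM) and IL18 (9.63 FPKM) came first, followed by IL1A at 1.40 FPKM. The bounds of neighbours in this order overlapped in every case, so the ranks of neighbours were not separated. After DAC, IL11 (39.7 FPKM) stood apart from LIF (9.95 FPKM), with bounds of their main transcripts that did not overlap. LIF was not separated from IL18, whose main transcript after DAC, NM_001562, had bounds of 0 to 11.3 FPKM that overlap those of NM_002309. IL18, IL1A, IL32, EBI3, IL1B, IL24 and IL6 followed, from 6.39 to 0.602 FPKM, each overlapping with the next. In HMLER the 7 listed genes spanned 0.654 to 2.70 FPKM untreated and 7.26 to 18.2 FPKM after DAC. Levels of the 2 lines come from tables normalized separately and were not compared.

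**Figure D4:**
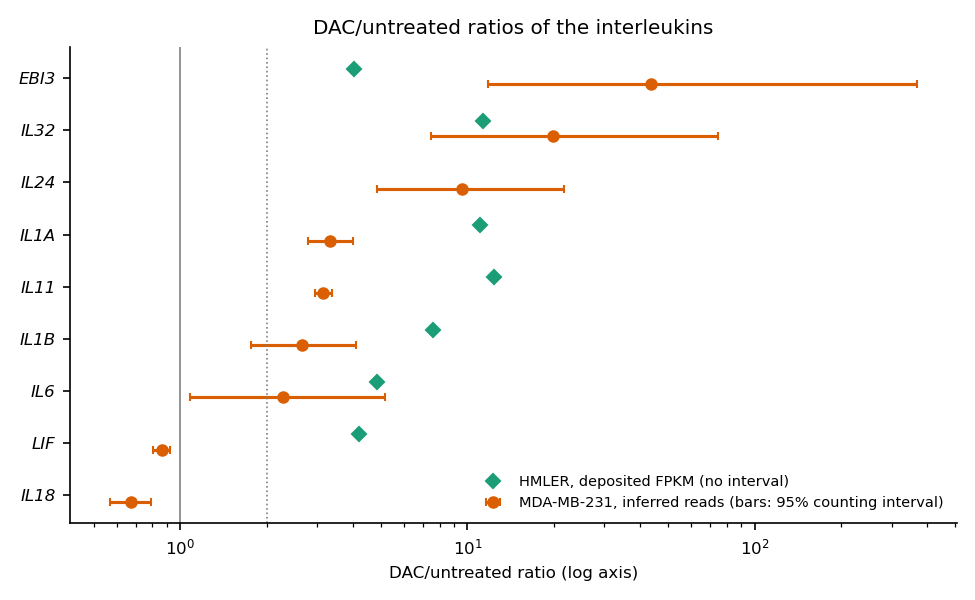
DAC/untreated ratio (log axis) of 9 interleukins by inferred reads in MDA-MB-231 (orange, bars for the 95% counting interval) and by deposited FPKM in HMLER (green, no interval), with lines at 1 and 2. The intervals of LIF and IL18 lie under 1 and those of the other 7 genes above 1, and in HMLER all 7 listed ratios lie between 4.02 (EBI3) and 12.4 (IL11). The interval of IL24 does not cover the division of reads between IL24 and FAIM3.

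The genes around these interleukins in their pathways were then examined with 13 lists that hold 115 symbols. These lists were also chosen with earlier results of these data known, so the shares of all symbols are a description here too. Of these, 68 reached 1 FPKM in MDA-MB-231. Among the 68, 17 were higher and 4 were lower, against 10.8% and 4.82% of all symbols at this level, so the number lower was near the background. For 7 of the 17 the untreated sum was under 1 FPKM. Of the 115 symbols 28 were listed in HMLER, against 7.85% of all symbols. Most of the receptors and adaptors that reached 1 FPKM changed less than 2-fold, as did most of all symbols at this level. The lists of NF-κB genes and of their targets held 4 and 6 of the higher genes.

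Among 7 receptors of the gp130 family, 6 reached 1 FPKM and 1 was higher. This was IL11RA, the private receptor chain of IL-11, at 1.52 FPKM untreated and 5.21 FPKM after DAC, a ratio of 3.44 with overlapping bounds. The shared chain IL6ST was at 15.3 and 13.7 FPKM and the oncostatin M receptor OSMR at 17.4 and 15.6 FPKM. None of the 7 was listed in HMLER. Of 16 receptors and adaptors of the IL-1 family, 10 reached 1 FPKM and none changed 2-fold, with the kinase IRAK1 at 85.6 and 51.2 FPKM and the inhibitor TOLLIP at 15.7 and 15.4 FPKM. The signalling receptor IL1R1, looked at for its role after its values were seen, was at 0.135 and 0.778 FPKM. In HMLER the decoy receptor IL1R2 (0.215 to 1.96 FPKM) and the IL-36 receptor IL1RL2 (0.755 to 2.63 FPKM) were listed. The 3 receptor genes for IL-24, IL20RA, IL20RB and IL22RA1, stayed under 1 FPKM in both MDA-MB-231 libraries.

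Downstream of gp130, 10 of 11 JAK, STAT and SOCS genes reached 1 FPKM, 2 were lower and none was higher. SOCS3, the feedback inhibitor of gp130 signalling and a STAT3 target, was at 40.5 FPKM (bounds 22.2 to 58.8) untreated and 8.66 FPKM (bounds 3.56 to 13.8) after DAC, a ratio of 0.214 with bounds that did not overlap. SOCS2 was at 29.5 and 10.1 FPKM, a ratio of 0.342, and was listed as higher in HMLER (0.981 to 4.36 FPKM). SOCS1 was at 1.02 and 1.59 FPKM and was listed in HMLER at 0.412 and 2.44 FPKM. STAT3 itself was at 49.3 and 40.7 FPKM. Of 12 STAT3 and acute-phase target genes, 6 reached 1 FPKM, 2 were higher and SOCS3 was lower. The AP-1 subunit JUNB was at 8.95 and 35.3 FPKM and the kinase PIM1 at 10.6 and 23.9 FPKM. The acute-phase gene SAA1 stayed under 1 FPKM in MDA-MB-231 and was at 42.3 and 179.4 FPKM in HMLER.

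In the NF-κB list all 14 genes reached 1 FPKM, 4 were higher and none lower, and the same 4 genes were among the 5 listed in HMLER. RELB, a subunit of the non-canonical pathway, was at 1.30 FPKM and 11.4 FPKM, a ratio of 8.78 with bounds that did not overlap, and at 5.25 and 15.7 FPKM in HMLER. Its partner NFKB2 was at 6.74 and 29.4 FPKM, a ratio of 4.37, and at 3.55 and 14.5 FPKM in HMLER. The inhibitor NFKBIE was at 6.28 and 14.4 FPKM, and TNFAIP3, which encodes an inhibitor of NF-κB and was named after its values were seen, at 1.32 and 7.35 FPKM. NFKBIB, the other gene listed in HMLER, was at 35.6 and 60.5 FPKM. The canonical subunit RELA was at 54.7 and 48.05 FPKM.

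Of 12 target genes of IL-1 and NF-κB, 10 reached 1 FPKM, 6 were higher and none lower, and 9 were listed in HMLER, all 6 of the higher genes among them. For 5 of the 6, all but BIRC3, the untreated sum was under 1 FPKM, so they reached the minimum only through the DAC-treated library. The adhesion molecule ICAM1 was at 0.447 and 11.6 FPKM, a ratio of 26.0 with bounds that did not overlap, and at 6.05 and 25.1 FPKM in HMLER. The survival gene BIRC3 was at 1.29 and 3.80 FPKM, and at 1.52 and 33.2 FPKM in HMLER. The chemokine IL8 (CXCL8) was at 6.74 and 13.1 FPKM, a ratio of 1.94 that missed the 2-fold threshold, and at 5.40 and 30.6 FPKM in HMLER, and CXCL1 was at 3.74 and 6.61 FPKM and at 16.3 and 37.8 FPKM. SOD2, which encodes the mitochondrial superoxide dismutase, was at 103.2 and 94.0 FPKM. The median log2 change was 0.88 over the 10 targets, 0.27 over the NF-κB genes, -0.11 over the IL-1 receptors and adaptors, -0.09 over the JAK, STAT and SOCS genes and -0.08 over all symbols at 1 FPKM or more. The median of the targets is raised by the filter, as the 5 genes under 1 FPKM untreated could only have a positive change.

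Of 12 genes for the processing and release of IL-1 family cytokines, 8 reached 1 FPKM, 2 were higher and 1 lower. PYCARD, the inflammasome adaptor ASC, was at 0.0458 FPKM untreated and 2.80 FPKM after DAC, and the sensor NLRP3 at 1.37 and 3.42 FPKM. CASP1, which encodes the protease that cleaves IL-1β and IL-18 and was looked at for this role after its values were seen, was at 0.0621 and 0.0313 FPKM. The calpain gene CAPN2 was at 223.9 and 92.4 FPKM, a ratio of 0.412. Among other cytokines, CLCF1 of the IL-6 family was at 12.8 and 9.66 FPKM and at 1.72 and 5.44 FPKM in HMLER, and CTF1 at 4.61 and 7.79 FPKM. The IL-12 family subunit IL23A was at 0.0560 and 0.676 FPKM and at 0.518 and 3.90 FPKM in HMLER. Of 8 other epithelial cytokines, IL7 was higher (0.488 to 1.49 FPKM), CSF3 was lower (4.35 to 1.83 FPKM), and 3 were listed in HMLER, among them CSF2 (0.962 to 4.65 FPKM) and IL15 (1.63 to 3.84 FPKM).

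**Figure D5:**
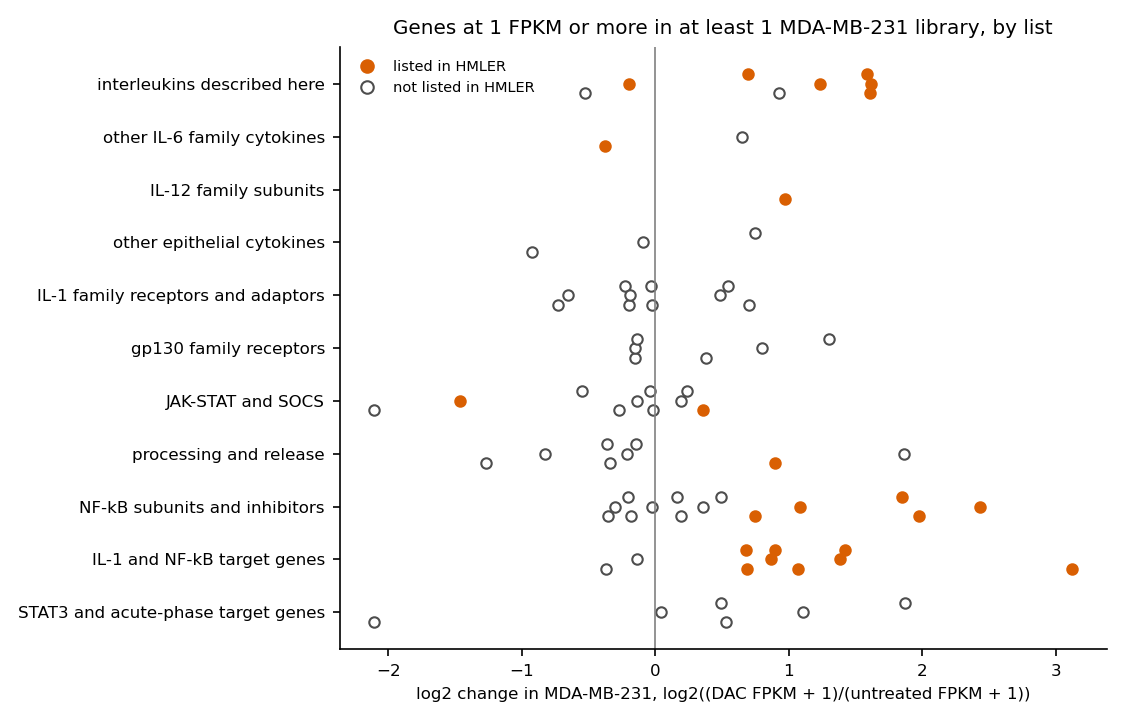
Log2 change in MDA-MB-231 (x axis, 1 FPKM added to each sum) of every gene at 1 FPKM or more, by list (rows), filled where the gene was also listed in HMLER. Filled points of the NF-κB rows reach 3.12 (ICAM1), and in the row of JAK, STAT and SOCS genes SOCS3 lies at -2.10.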

How the data were processed

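RNA-seq was done on 6 libraries from 2 cell lines. Per the labels and the study's methods, the authors used Galaxy to align reads (TopHat2, hg19) and to compute FPKM of RefSeq transcripts (Cuffdiff). Tool versions are not given in the sources used here. The deposited MDA-MB-231 table holds FPKM and bounds of 43497 transcripts. The deposited HMLER table holds 2009 transcripts, each more than 2-fold higher (lowest ratio 2.00) and at 1.00 FPKM or more after DAC, so other genes of HMLER were not analysed here. Fold changes, test statistics, p-values and q-values of the authors' own comparison were not used.

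Transcripts were summed per symbol for all symbols. The fold threshold was 2, the minimum 1 FPKM and the pseudocount of log2 changes 1 FPKM, which understates changes of low genes. In transcripts longer than 2000 bases that are alone at their symbol and locus, 100% of 885 untreated and 99.9% of 939 DAC low values lay within 0.1 of a whole read, with 230 bases taken off the length. One read per effective kilobase was worth 0.0233 and 0.0234 FPKM. Of 18 read totals of the members (without IL33), 15 were whole within 0.1. The members and lists were chosen with earlier results of these data known. Named list genes are up to 4 changed or listed in HMLER and up to 2 others per list, by summed FPKM, and exceptions are said in place. The calling step was run on simulated data with large planted changes and little noise, which does not measure its error for genes with few reads. Alternatives were other minimums, pseudocounts, scaling, 1 transcript per symbol, status and bounds. Tools were scipy 1.17.1, matplotlib 3.10.9, pandas 2.3.3 and numpy 2.4.6 under Python 3.11.15.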

Additional observations from a re-analysis of the deposited data

Results flagged for a closer look

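In 3 genes at 1 FPKM or more, the summed FPKM was lower after DAC in MDA-MB-231 while the gene was listed as higher in HMLER. The DAC/untreated ratio in MDA-MB-231 was 0.864 for LIF, 0.753 for CLCF1 and 0.342 for SOCS2, and the ratio in HMLER was 4.18, 3.17 and 4.44. The bounds of the main transcript in the 2 MDA-MB-231 libraries overlapped for all 3 genes. With a single value per condition and line, these differences were not tested. The MDA-MB-231 ratios are of sums, and the HMLER ratios are of listed transcripts, all of which rose.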

How the results depend on the processing

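No paired analysis was possible because each line has a single value per condition (merged in HMLER), and for the same reason no replicate could be left out. The number of members more than 2-fold higher in MDA-MB-231 (6) was 1 with 5 FPKM or more in at least 1 library, 2 with 1 FPKM or more in both libraries and 1 where the bounds of the largest transcript must not overlap. The number higher in both lines (5) was 1, 2 and 1 under these settings. With the largest transcript in place of the sum, the number lower (0) was 1, which was IL18. In each case fewer genes or another transcript entered by construction. Without a filter, with a pseudocount in the ratio, after division by the median ratio and with status OK alone, these counts stayed within 1.5 times, as did the 7 members listed in HMLER under 2 stricter minimums. Of 40 recomputed log2 changes, 37 stayed within the range the bounds allow (a wide one for IL18, at -2.62 with its largest transcript), and with a pseudocount of 0.1 FPKM those of IL24, IL32 and EBI3 were 2.47, 3.51 and 3.94. The depth limits what can be said of genes with few reads, such as EBI3 and IL32 in the untreated library.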

Other observations

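Within 100 kilobases of the 10 interleukin genes, the MDA-MB-231 table holds 64 other symbols, of which 32 reached 1 FPKM, 8 were more than 2-fold higher after DAC and none lower, against 10.8% and 4.82% of all symbols at 1 FPKM or more. The higher neighbours were CLDN6 beside IL32 (0.0402 to 2.04 FPKM, also listed in HMLER), FAIM3 at the IL24 locus, FSD1 beside EBI3 (listed at 0 FPKM untreated and at 1.22 FPKM after DAC), PIH1D2 beside IL18 (1.04 to 4.02 FPKM), BRSK1 and TMEM238 beside IL11 (ratios 2.16 and 2.61) and CCDC157 and TBC1D10A beside LIF (ratios 2.09 and 2.16). These genes were chosen with their values known. CLDN6, FAIM3 (0.227 FPKM), FSD1 and CCDC157 (0.700 FPKM) were under 1 FPKM untreated, so they reached the minimum only through the DAC-treated library. FAIM3 also shares reads with IL24, so these 2 genes are not separate observations. IL1A, IL1B, IL6 and IL33 had no higher neighbour other than each other.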
